A study of Mus musculus with 7 samples.

Results

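The peaks described are those of 2 H3K9me3 peak lists, WT and KO, that start on mouse chromosome 17 at or beyond 5 Mb in the mm9 build. This stretch held 1266 of the 23190 WT peaks, a share of 5.46%, and 221 of the 3775 KO peaks, a share of 5.85%. Chromosome 17 was selected on its measured density of WT peaks, the highest of the 20 chromosomes, so its peak numbers are given as a description, with no test. The peaks before the 5 Mb limit, 45 in WT and 24 in KO, were left out.

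H3K9me3 was measured by ChIP-seq on chromatin digested by micrococcal nuclease in iMEFs, mouse embryonic fibroblasts that had been immortalised and that carry a conditional allele of Setdb1. WT refers to Setdb1 cKO iMEFs left untreated, and KO to the same cells given 4-hydroxytamoxifen (4OHT), which induces deletion of Setdb1, for the first 4 days and harvested on day 7. There was 1 H3K9me3 library per group, so WT and KO were compared without replicates, and the deletion, the 4OHT treatment and the quality of each library cannot be told apart. The other 5 samples of the series, 2 forebrain H3K9me3 libraries and 3 inputs, were not analysed here, and a peak list holds neither read totals nor expression, so neither the depth, nor the cell type, nor the loss of Setdb1 could be checked.

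H3K9me3 is a histone mark of silent chromatin. Setdb1 deposits it at many endogenous retroviruses (ERVs), to which it is brought by Trim28 and by KRAB zinc-finger proteins that recognise DNA through arrays of zinc fingers. The genes of these proteins lie in tandem clusters that grew by duplication, and in mammalian cells H3K9me3 is known to cover the exon that encodes the fingers of many of them. Chromosome 17 of the mouse carries several such clusters, beside clusters of vomeronasal receptor genes and the major histocompatibility complex.

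The sequences below are from WT peaks on finger exons of 3 genes in the most crowded windows, and they show the repeated unit that these peaks cover. Each is 150 bases of annotated coding sequence on the strand of its gene, read from NCBIM37, which is mm9. Zfp97 is shown at chr17:17281609-17281758 on the plus strand, Zfp943 at chr17:22130044-22130193 on the plus strand and Zfp944 at chr17:22476094-22476243 on the minus strand. Capitals mark matches to ACNGGNGANAANCC, 14 letters that encode the conserved linker between neighbouring zinc fingers. In each stretch 2 linkers follow each other with 1 finger between them.
Zfp97 finger exon: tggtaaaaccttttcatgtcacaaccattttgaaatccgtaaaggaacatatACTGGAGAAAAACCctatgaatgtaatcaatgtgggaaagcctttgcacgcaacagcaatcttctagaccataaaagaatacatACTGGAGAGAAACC
Zfp943 finger exon: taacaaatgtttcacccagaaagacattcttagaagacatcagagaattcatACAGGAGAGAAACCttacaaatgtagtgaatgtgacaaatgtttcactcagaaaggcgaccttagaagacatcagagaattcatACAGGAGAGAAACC
Zfp944 finger exon: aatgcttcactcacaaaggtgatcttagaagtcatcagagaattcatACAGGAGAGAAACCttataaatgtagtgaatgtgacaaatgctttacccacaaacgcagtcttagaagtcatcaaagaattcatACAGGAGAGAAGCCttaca

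The WT peaks of chromosome 17 were unevenly spread. Each peak was assigned to the 1 Mb window that held its midpoint, which gave 91 windows. All 91 windows held a WT peak, with a median of 10 per window, a lowest number of 1 and a highest of 118. Only 14 windows held over 20. KO peaks were found in 58 windows, with a median of 2 and at most 10 in a window, and 33 windows held none. The longest runs of windows without a KO peak were 2 runs of 6 windows, from 42 to 48 Mb with 43 WT peaks together and from 59 to 65 Mb with 50. Across the 91 windows the WT and KO numbers had a Spearman correlation of 0.51, as a description over windows of the same 2 libraries.

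**Figure D1:**
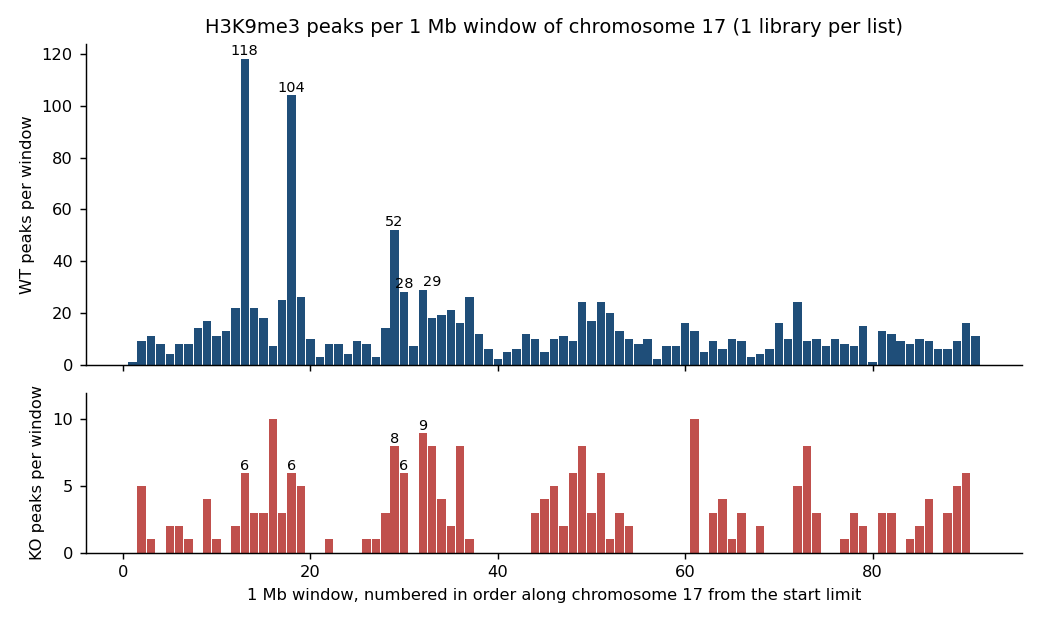
Number of WT peaks (upper bars) and KO peaks (lower bars) in each of the 91 windows of 1 Mb, in order along chromosome 17, with the numbers printed for the 5 windows richest in WT peaks. A pair of windows with 118 and 104 WT peaks stand above all others, whereas the same windows held 6 KO peaks each.

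The window from 17 to 18 Mb held the most WT peaks, 118, which covered 38.6 kb. It ranked 6th among all 1 Mb windows of the genome. The window from 22 to 23 Mb followed with 104 WT peaks over 33.9 kb and ranked 8th. Both windows hold clusters of zinc-finger genes. Each held 6 KO peaks, of which 1 shared a base with a WT peak. Together they held 222 WT and 12 KO peaks. Picking windows by their WT number by itself lowers the ratio of KO to WT peaks in them, so no ratio is drawn from these windows, and their 6 KO peaks each lie above the KO median of 2 per window. Within them the median gap between neighbouring WT peaks was 1339 bp. Over the whole stretch of chromosome 17 it was 15362 bp, and over all other WT peaks of the genome 30769 bp.

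The next window, from 33 to 34 Mb, held 52 WT and 8 KO peaks and contains Zfp81 and Zfp763. The windows from 36 to 37 Mb and from 34 to 35 Mb lie in the major histocompatibility complex and held 29 WT and 9 KO peaks and 28 WT and 6 KO peaks. These 5 windows together held 331 WT peaks, 26.1% of those on the chromosome, the value by which they were picked. They held 35 of the 221 KO peaks. The most KO peaks in a window, 10, lay elsewhere, in the windows from 20 to 21 Mb and from 65 to 66 Mb, which held 7 and 13 WT peaks. Without the 2 densest windows the WT density fell from 14.02 to 11.8 peaks per Mb. The KO density was 2.45 per Mb over the whole stretch.

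In the window from 17 to 18 Mb, the WT peaks in protein-coding genes lay mainly on 3 zinc-finger genes. Zfp97 (chr17:17258379-17283795, plus strand) held 9 WT peaks in its body, and BC002059 and Zfp960 held 6 each. Gm6712, which had no linker match, held 3. Of the 118 WT peaks, 27 were in a protein-coding gene and 5 on coding sequence, so that most lay outside protein-coding genes. The KO list had no peak in any of these 4 genes, beside a KO peak in 2.86% of all protein-coding genes of the chromosome.

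In the window from 22 to 23 Mb, 41 of the 104 WT peaks were in a protein-coding gene and 21 on coding sequence. Zfp943 (chr17:22099519-22208135, plus strand) held 10 WT peaks, Zfp942 held 9, and 2210404O09Rik and Zfp944 held 6 each. All of these had 6 or more linker matches in their coding sequence, and 0 KO peaks fell in them. In the window from 33 to 34 Mb, Zfp81 (chr17:33466287-33495823, minus strand) held 12 WT peaks, the most of any Zfp gene on the chromosome, and Zfp763 held 3. In the same window Zfp955a, with fewer linker matches than 3, and Myo1f, an unconventional myosin gene, held 1 each.

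The gene families of chromosome 17 differed widely in how many members held a WT peak in their body. Over all protein-coding genes of the genome 9.05% held a WT peak and 2.32% a KO peak, and 1.11% had a WT peak on coding sequence. Of 45 Zfp genes on chromosome 17, 16 held a WT peak, 35.6% (95% Wilson interval 23.2 to 50.2, which like those below covers counting error only), with 77 peaks in all, and 13 held one on coding sequence. On the other chromosomes the share of Zfp genes was 19.0% (15.1 to 23.6). No Zfp gene of chromosome 17 held a KO peak, and 0 of 45 allows a share of up to 6.67%.

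The Zfp symbol also names proteins with few or no fingers of this type, so genes were in addition sorted by sequence. A protein-coding gene with at least 3 linker matches on its strand of the coding sequence is called a linker gene here. There were 40 on chromosome 17, and 18 of them held a WT peak, 45.0% (30.7 to 60.2). The 5 windows picked for most WT peaks contain 18 of the 40 genes, and 12 of those held one. The share thus rests in part on windows chosen by WT peaks. The share was 34.4% (29.1 to 40.2) for the 276 linker genes on other chromosomes, an interval that overlaps the first. Of the 10 Zfp genes on chromosome 17 with fewer matches, 1 held a WT peak. Among the 1045 other protein-coding genes of the chromosome the share was 8.13% (6.63 to 9.95). KO peaks lay in 0 of the 40 linker genes on chromosome 17, which allows up to 7.50%, and in 5.43% of those elsewhere.

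Within the linker genes the WT peaks lay on finger exons and in introns. Of 89 WT peaks in the bodies of the 40 genes, 42 touched an exon, 34 touched coding sequence and 32 touched the finger exon, meaning the coding exon with the most linker matches. The other 47 were intronic. The finger exons together measured 58850 bp and WT peaks covered 22.3% of it, whereas they covered 0.341% of the chromosome. The 2 densest windows hold 3 and 8 of the 40 genes, and there WT peaks covered 38.6 and 33.9 kb of 1 Mb. A contrast with the surrounding sequence would thus be smaller than that with the chromosome. The introns measured 682481 bp, and the WT bases on them are not given here. KO peaks on the finger exons numbered 0, where KO peaks covered only 21.9 kb of the whole stretch of 90.3 Mb.

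Finger exons of 15 genes were touched by a WT peak, and in 8 genes at least 50% of the exon was covered. Zfp97 had its finger exon of 1420 bp covered by 1 peak over its full length, 100%. Coverage was 93.8% in Zfp81 and 93.6% in Zfp942. It was 93.3% in Zfp763, 91.9% in 2210404O09Rik and 77.5% in Zfp945. In Zfp960, which lies beside Zfp97, all 6 WT peaks were outside the finger exon, which was covered at 0%. Prdm9, whose product places methyl groups on histone H3 at sites of meiotic recombination, had 11.1% of its finger exon covered.

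The clusters were not alike. In the window from 22 to 23 Mb 7 of 8 linker genes held a WT peak, with 40 peaks in their bodies, and the exception was Zfp758. In the neighbouring window from 21 to 22 Mb there were 11 linker genes, and 2 of them, Zfp160 and Zfp948, held 3 peaks between them. From 32 to 33 Mb none of 3 linker genes held a WT peak, and from 33 to 34 Mb 2 of 7 did. The finger exons did not differ much in size, with a median of 1408 bp where a WT peak touched them and 1496 bp where none did, and the genes had a median of 7 and 6 linker matches. With 1 library, whether clusters differ beyond the spread between cultures could not be tested.

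**Figure D2:**
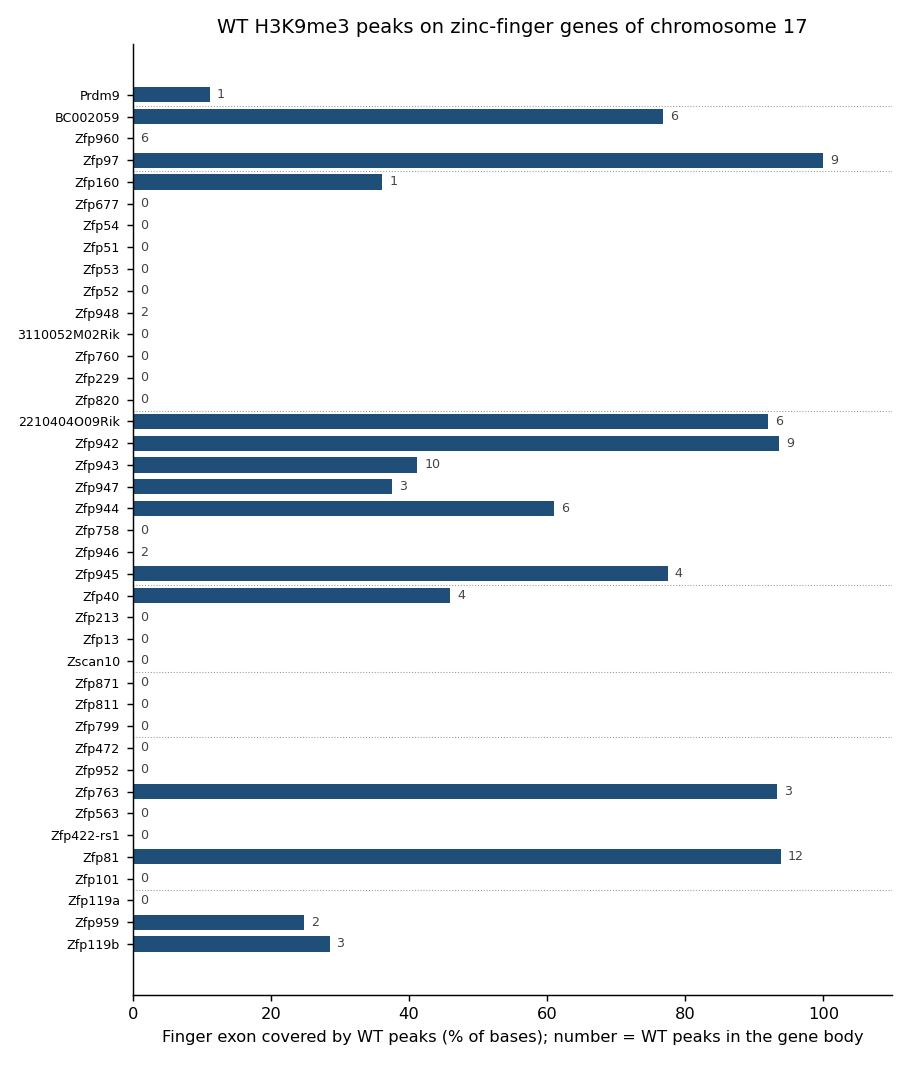
Share of the finger exon covered by WT peaks (bars, percent of bases) for the 40 linker genes of chromosome 17 in chromosomal order, with dotted lines between 1 Mb windows and the number of WT peaks in each gene body beside the bar. The run of 11 genes from Zfp160 to Zfp820 is nearly empty, and the next 8 genes, from 2210404O09Rik to Zfp945, hold 40 peaks.

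The 32 WT peaks on finger exons had a median width of 421 bp, between 94 and 3062 bp, where the median over all WT peaks of the chromosome was 156 bp. Their pileup, the number of fragments over the summit, was 11 in the median, with 9 the lowest and 21 the highest, against a median of 10 over the chromosome. Although the genes are duplicates of each other, 27 of the 32 peaks were single-copy, meaning that the median 31-base word of the peak occurs once in the genome, and the highest copy number was 5. Reads that fit several sites had been placed at 1 of them at random, and the part of this in the other 5 peaks was not tested. None of the 32 peaks had a KO peak within 10 kb, and 5 had one within 50 kb. Over all WT peaks of the chromosome the shares were 9.32% within 10 kb and 28.7% within 50 kb. In the 2 densest windows they were 4.50% and 26.1%.

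The linker motif was also counted in the 300 bases around the centre of each peak, on both strands. It was present at 31 of 1266 WT peaks of chromosome 17, 2.45% (1.73 to 3.45), and at 0 of 221 KO peaks, which allows up to 1.36%. Among all other peaks the share was 1.37% in WT and 0.563% in KO. All 300 bp tiles of the chromosome held it at 0.132%. In the 2 densest windows the share was 9.01% of WT peaks and 1.61% of tiles, and outside them it was 1.05% of WT peaks of the chromosome. Of the 31 peaks with a match, 16 were on coding sequence of linker genes and 11 were outside every annotated gene.

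Vomeronasal receptor genes share the same part of the chromosome, and their products detect pheromones. Of 32 Vmn2r genes 4 held a WT peak, 12.5% (4.97 to 28.1), and 7 a KO peak, 21.9% (11.0 to 38.8). It was the only family on the chromosome with more members in KO than in WT, but the 2 intervals overlap. The WT interval holds the 9.05% of all protein-coding genes, whereas the KO interval lies above their 2.32%. Vmn2r118 held 3 WT peaks and 0 KO peaks, and Vmn2r90 held 2 and 1. The 7 KO peaks were spread over 7 genes, 1 in each. Of these genes only Vmn2r90 also held a WT peak. Vmn2r94, Vmn2r98, Vmn2r104, Vmn2r108, Vmn2r111 and Vmn2r114 held none, and they were picked after their values were seen. On other chromosomes 17.2% of Vmn2r genes held a WT peak and 8.60% a KO peak. None of 13 Vmn1r genes held a peak of either list, which allows up to 23.1%.

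The other families fixed by symbol are given beside the 9.05% of all protein-coding genes that held a WT peak. Of 36 H2- genes, which encode histocompatibility antigens and related proteins, 2 held a WT peak, 5.56% (1.54 to 18.1), an interval that holds the general share. None held a KO peak, and those with a WT peak were H2-Aa and H2-Ab1, the genes of a class II pair. The window from 36 to 37 Mb holds 14 H2- genes, and its WT peaks in protein-coding genes were 2 in Gm6034. Olfactory receptor genes numbered 49, and none held a peak of either list, which allows up to 6.12%. Fpr3, a formyl peptide receptor gene, held 4 WT peaks, and none of the other 6 Fpr genes held one. Crisp3, a gene of secreted cysteine-rich proteins, held 1 WT and 1 KO peak and was the only one of 3 Crisp genes with either. The 7 Cyp4f, 11 Prss and Tmprss, and 6 Tcp and Tcte genes held 0, which allows shares of up to 42.9%, 27.3% and 50%, and no gene with an Esp symbol was annotated on the chromosome.

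ERVs were examined at positions that the study lists for full-length internal regions of its families, a list that the study chose. On chromosome 17 there were 44 copies, and 22 of them overlapped a WT peak, 50% (35.8 to 64.2), beside 44.0% over all listed copies of the genome. IAPEz copies were marked, meaning overlapped by a called peak, at 18 of 28 and MMERVK10C copies at 4 of 4. Elsewhere these were 276 of 565 and 134 of 163. In both families the intervals overlapped. MMVL30 copies were marked at 0 of 7 and RLTR6 copies at 0 of 5, which allows up to 42.9% and 60%. Elsewhere 3 of 79 MMVL30 and 38 of 181 RLTR6 copies were marked, shares within these limits. The study reports H3K9me3 on both families in WT iMEFs and its loss in KO, from profiles averaged over copies and, for MMVL30, from ChIP-qPCR. Reads with several matches were placed at random, so a copy without a called peak is not shown to lack H3K9me3. With 1 kb added on each side, to reach the flanking repeats, the numbers on chromosome 17 were 2 of 7 and 2 of 5. Elsewhere they were then 8 of 79 and 53 of 181. In KO 1 of 44 copies, an MMERVK10C copy, overlapped a peak, beside 1.02% over all copies. The window from 17 to 18 Mb held no listed copy, and that from 22 to 23 Mb held 1, an IAPEz copy without a WT peak.

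Few of the WT peaks of chromosome 17 shared a base with a KO peak. The number was 13 of 1266, 1.03% (0.601 to 1.75), where 2.42% did over the whole WT list. All other WT peaks shared a base at 2.5% (2.30 to 2.71). From the KO side 14 of 221 peaks shared a base with a WT peak, 6.33% (3.81 to 10.4), beside 16.1% over the whole KO list and 16.7% (15.5 to 18.0) among all other KO peaks. A WT peak lay within 1 kb of 13.1% of the KO peaks of chromosome 17 and of 30.8% of those elsewhere, and within 10 kb of 31.7% and 54.6%. These intervals did not overlap. Within 50 kb the shares were 77.8% and 79.7%, with overlapping intervals. With 1 library per group these differences cannot be tested across samples.

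**Figure D3:**
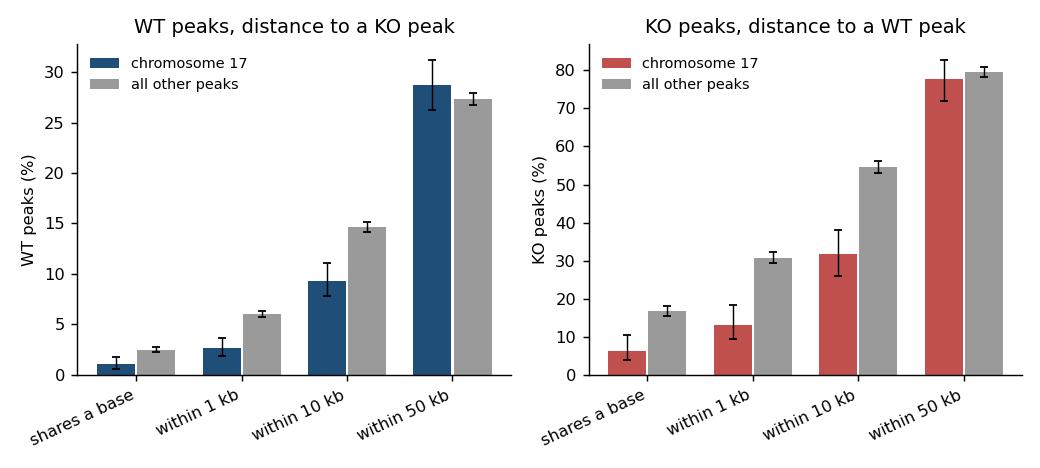
Share of WT peaks (left) and KO peaks (right) that share a base with a peak of the other list or lie within 1, 10 or 50 kb of one, on chromosome 17 (coloured) and over all other peaks (grey). Error bars are 95% Wilson intervals, and they overlap between the 2 groups at 50 kb alone.

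The share was also taken within classes of the local background, the coverage in fragments that the peak caller expected at the site. Among WT peaks with a background over 3 fragments, 1 of 19 on chromosome 17 was retained, 5.26% (0.935 to 24.6), and 318 of 918 elsewhere, 34.6% (31.6 to 37.8). Such peaks made up 1.5% of WT peaks on chromosome 17 and 4.19% elsewhere. From above the lowest background to 1.5 fragments the shares retained were 1.29% on chromosome 17 and 1.15% elsewhere, and from 1.5 to 3 fragments they were 1.22% and 3.34%. At the lowest background they were 0.432% and 0.575%. In each class below 3 fragments the intervals overlapped, and on chromosome 17 the highest class rests on 1 retained peak. The start limit also bears on it. The 45 WT peaks before 5 Mb had a median background of 7.23 fragments and 12 of them shared a base with a KO peak. With those rows added, the share was 1.91% of 1311 WT peaks and 10.6% of 245 KO peaks. Among whole chromosomes, counted from the highest share, these ranked 9th and 16th, so several other chromosomes had lower shares. The last WT peak outside the limit, at chr17:4895499-4896872, had a pileup of 14, and the first inside, at chr17:5485185-5485290, had a pileup of 11. The nearest KO peaks on the 2 sides, at chr17:4897905-4898267 and chr17:6320515-6320588, both had a pileup of 11.

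The 13 retained WT peaks lay in 13 different windows, and 12 were outside every annotated gene. The 1 of 13 in a gene has an interval of 1.37 to 33.3%. It holds the 23.2% of all WT peaks of the chromosome that lay in a gene. Their pileup was 11 in the median, between 9 and 52, and that of the KO peaks sharing bases with them was 10. It was lower in KO at 8 of the 13, equal at 2 and higher at 3. The KO peak was the narrower at 10 of the 13, with a median of 106 bp against 300 bp. Of the 36 WT peaks wider than 1 kb, 4 were retained, 11.1% (4.41 to 25.3), and of the narrower ones 0.732% were. Among all other WT peaks the shares were 18.2% (14.4 to 22.8) and 2.26%, so the contrast is not particular to this chromosome. A wider peak also offers more bases in which an overlap of 1 bp can fall. No KO peak of the chromosome was wider than 1 kb, the widest measuring 422 bp.

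**Figure D4:**
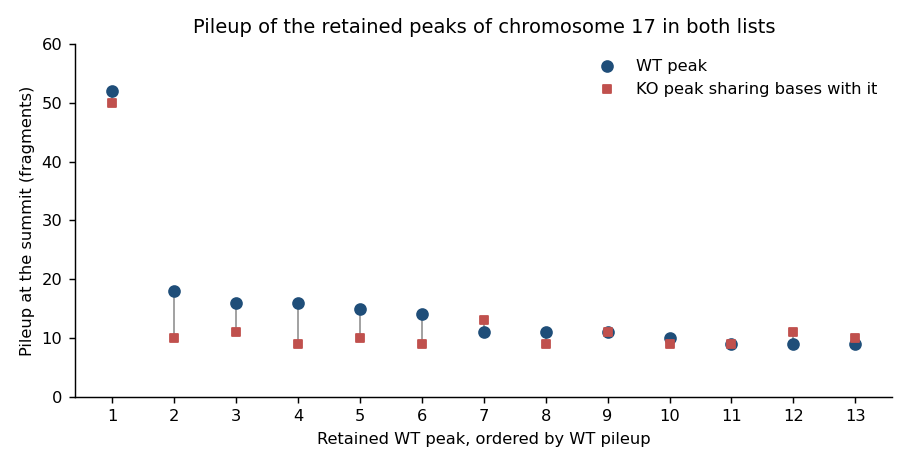
Pileup at the summit, in fragments, of the 13 retained WT peaks (circles) and of the KO peak that shares bases with each (squares), ordered by WT pileup. One pair stands at 52 and 50 fragments and the others lie between 9 and 18, with KO lower than WT in 8 of 13.

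The retained peak with the highest score, the deposited −log10 q, was at chr17:33265247-33267272, 5.26 kb from Morc2b. Its pileup was 18 in WT and 10 in KO, and its score was 10.3 in WT. The peak at chr17:56050756-56053130 followed with pileups of 16 and 11, and that at chr17:34886717-34887641, 5.89 kb from the complement gene C4b, with 15 and 10. In these 3 the KO pileup was the lower, but picking by WT score by itself favours this, so no direction is drawn. Picked by KO score instead, the 3 leading overlapping KO peaks had pileups of 13, 50 and 11, against 11, 52 and 9 in WT. The peak with the highest pileup, at chr17:83388246-83388318, had 52 in WT and 50 in KO over a background of 18.4 and 18.2 fragments, and all other retained peaks had a WT background of at most 1.70.

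A pair of the 8 single-copy retained peaks are shown as examples of ordinary background. They were not picked by score and do not stand for the other retained peaks. The first lies at chr17:26983225-26983524, 4.71 kb from Nkx2-5, the gene of a cardiac homeodomain factor. The second lies at chr17:53592976-53593218 in an intron of Efhb, the only gene on the chromosome that overlapped a retained peak. Its WT score was 2.39, and no retained peak scored lower. Both are printed on the plus strand of mm9, with capitals for the bases that the KO peak shares. The WT and KO pileups were 11 and 9 in the first and 9 and 11 in the second. Neither holds the linker motif.
Retained peak near Nkx2-5: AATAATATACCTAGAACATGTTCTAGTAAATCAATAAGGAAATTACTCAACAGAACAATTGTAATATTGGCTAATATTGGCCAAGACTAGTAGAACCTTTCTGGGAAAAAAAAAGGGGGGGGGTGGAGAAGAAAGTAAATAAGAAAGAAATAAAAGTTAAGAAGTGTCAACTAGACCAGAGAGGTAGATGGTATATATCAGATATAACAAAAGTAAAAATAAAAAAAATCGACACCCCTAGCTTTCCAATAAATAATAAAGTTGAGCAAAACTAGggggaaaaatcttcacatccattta
Retained peak in Efhb: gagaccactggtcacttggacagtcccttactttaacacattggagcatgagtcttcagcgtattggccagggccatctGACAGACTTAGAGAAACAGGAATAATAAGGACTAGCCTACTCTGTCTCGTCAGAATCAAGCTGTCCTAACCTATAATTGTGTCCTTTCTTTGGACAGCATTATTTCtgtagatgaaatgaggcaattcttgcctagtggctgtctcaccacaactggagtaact

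The other 1253 WT peaks were lost. The lost peak with the highest score, 13.0, was at chr17:71676217-71676476 in an intron of Gm16724, with a pileup of 22 and the nearest KO peak 1072 kb away. The next, at chr17:17177319-17179420, was intergenic, 21.7 kb from Zfp960 and thus in the densest window, with a pileup of 21 and a score of 12.7. The third, at chr17:55735043-55735323, lay in an intron of Vmn2r118 with a pileup of 19 and a score of 12.3. All 3 had a background below 2 fragments, and their sequences had median copy numbers of 3, 2 and 5470. The widest WT peak, 3674 bp at chr17:39980630-39984303, had a pileup of 58 over a background of 24.3 fragments and a GC content of 73.0%, the highest of any WT peak on the chromosome. Its copy number was 1, a count over assembled chromosomes alone, and the source of its high background was not tested.

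The KO peaks of chromosome 17 beyond 5 Mb were small. Of the 221, 136 had the lowest pileup in the list, 9, a share of 61.5% against 45.0% elsewhere, and 3 reached 15, 1.36% (0.463 to 3.91) against 20.8% elsewhere. The 24 KO peaks of the chromosome before 5 Mb, which count as elsewhere here, had a median pileup of 35.5. The start limit thus bears on these shares. KO peaks covered 21.9 kb, 7.12% of the 307 kb that WT peaks covered, and 1.78 kb was shared. Those that met no WT peak numbered 207, of which 165 were single-copy and 48 lay in an annotated gene. The highest in score, at chr17:65191823-65191896, had a pileup of 45 over a background of 11.9 fragments, in sequence whose median word occurs 342645 times in the genome. The next, at chr17:21020127-21020319 and chr17:92356310-92356444, each had a pileup of 12. KO peaks on the chromosome overlapped 31 protein-coding genes, 2.86% of them. Gm2792 had the most, 4 KO peaks and 2 WT peaks in a body of 225 kb.

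**Figure D5:**
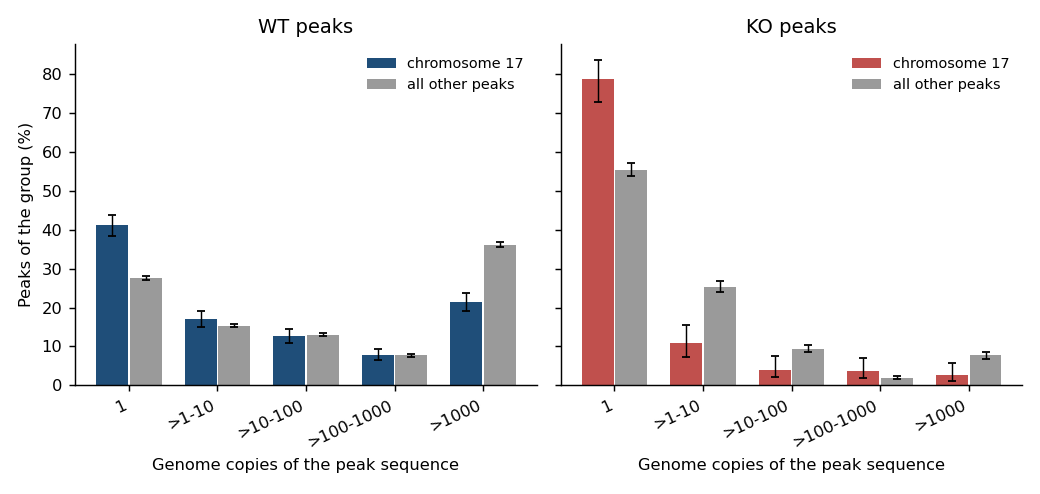
Share of WT peaks (left) and KO peaks (right) in 5 classes of genome copy number, on chromosome 17 (coloured) and over all other peaks (grey), with 95% Wilson intervals. Single-copy sequence held 41.2% of the WT peaks and 78.7% of the KO peaks of chromosome 17.

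The copy number of peak sequence, counted as above, was set beside that of all other peaks. Single-copy peaks made up 41.2% (38.5 to 43.9) against 27.6% elsewhere, and peaks in sequence with over 1000 copies 21.3% (19.2 to 23.7) against 36.2% (35.6 to 36.8). In KO, single-copy peaks made up 78.7% (72.9 to 83.6) against 55.5% elsewhere. The densest windows differed from the rest of the chromosome in the low-copy class, from over 1 to 10 copies, which held 32.4% (26.6 to 38.8) of their WT peaks and 13.8% (11.8 to 16.0) outside them. Peaks with over 1000 copies were 11.7% there and 23.4% outside.

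Many peaks shared sequence with each other. When peaks with a common 31-base word were joined, 684 of the 1266 WT peaks, 54.0%, fell into 46 groups, and the largest group joined 466 peaks over 73 windows, with a median copy number of 582. In the window from 17 to 18 Mb 79 of 118 WT peaks shared a word with another peak of that window, and from 22 to 23 Mb 51 of 104 did. A group of 22 peaks with a median copy number of 1 lay in the windows from 21 to 24 Mb alone. Whether reads of one such peak had been placed at another was not tested.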

How the data were processed

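Chromatin of Setdb1 cKO iMEFs was digested, per the labels, with micrococcal nuclease and precipitated with an H3K9me3 antibody, and single-end reads were mapped by the authors to mm9 with Bowtie2 2.2.3. Reads with several matches were placed at 1 of them at random and duplicates were removed. The authors called the peaks of each library on its own with MACS, version 2.1.0.20140616 per the file headers, with options that are not given in the sources used here. The deposited pileup is a coverage signal in fragments at the summit. Fold enrichment as deposited is pileup + 1 as a ratio to background + 1. A −log10 p-value and a −log10 q-value were also deposited for each peak, the second of which is the score. The study gives 1 range of read numbers for its iMEF libraries together; a total for each library was not used here. Starts were read as counted from 0, which is not stated, so positions carry an uncertainty of 1 bp.

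WT peaks sharing at least 1 bp with a KO peak were called retained, and others lost. The background was computed as (pileup + 1) / fold − 1. Genes were taken from GENCODE M1 on NCBIM37, copy numbers from 31-base words on both strands, and ERV positions from the study. GC content was taken over 500 bp. Interval and word-counting code was tested on simulated data, and overlap counts equalled those of bedtools 2.31.1. The tools were Python 3.11.15, biopython 1.88, pandas 2.3.3, numpy 2.4.6, numba 0.67.0, scipy 1.17.1, matplotlib 3.10.9 and pysam 0.24.0. Shares carry 95% Wilson intervals, a share of 0 allows 3 counts, and with 1 library per list no p-value was computed.

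The members, gene families and alternatives were chosen with earlier results of these data known; the linker genes, the Vmn2r genes picked by KO peaks and the runs without a KO peak were chosen after the values were seen. The rule named the 5 windows with most WT peaks, in each the 4 genes with most, the 3 leading genes of each family, genes over retained peaks, and the 3 highest-scoring retained, lost and KO-only peaks and the 3 widest. Alternatives changed the peak threshold, merging, start limit, overlap, repeats, windows, gene and element regions and word length.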

Additional observations from a re-analysis of the deposited data

How the results depend on the processing

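Of the 46 alternative values, 29 moved less than the interval of the main value, or, for counts, by less than 1.5 times, and 17 moved more. No paired analysis was possible because WT and KO had 1 library each, and for the same reason no replicate could be left out. With a minimum score of 3.04, the WT median, chromosome 17 kept 650 WT and 60 KO peaks. This setting gave 29.8% of WT peaks to the 5 densest windows and marked 34.1% of ERV copies. With a minimum pileup of 15, 70 WT and 3 KO peaks were left, and 33.3% of these KO peaks met a WT peak, with 34.3% of WT peaks in the densest windows, 8.89% of Zfp genes and 0% of ERV copies marked. Adding the rows before 5 Mb raised the retained share to 1.91% and the KO share to 10.6%. The retained share was 0.316% when at least 50% of the WT peak had to be covered and 2.61% when a KO peak within 1 kb sufficed, and the KO share was 13.1% in the latter case. Merging peaks within 1 kb lowered the share of the densest windows to 20.6%. With 21-base words, 31.3% of WT peaks had over 1000 copies. Leaving out the 2 densest windows, chosen after seeing the data, moved none of the 5 values it was tried on past these limits. The lists hold no read counts per region, so how depth limits either list was not tested.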
